A study of Mus musculus with 12 samples.

Results

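The response of Rictor-null fibroblasts to interferon-alpha was measured on 6 of the 12 arrays of the study, picked by their labels. All carried total RNA of an immortalized Rictor-/- line of mouse embryonic fibroblasts, cells of embryonic connective tissue. Arrays 3, 7 and 11 came from untreated cells, and arrays 4, 8 and 12 from cells kept for 24 hours with mouse interferon-alpha (IFN-alpha), 2500 U/ml. The other 6 arrays came from immortalized Rictor+/+ fibroblasts, untreated (arrays 1, 5 and 9) or treated alike (arrays 2, 6 and 10), and served as the comparison. Both lines grew in DMEM with 10% fetal bovine serum and gentamycin. The labels show 1 line per genotype, so genotype and line cannot be told apart. The treatment field mentions Rictor siRNAs as well, also for the knockout cells, and the groups here follow the genotype fields. Whether arrays of a group are separate cultures is not given in the sources used here, so p-values measure only the spread between these arrays, which may be technical. The question was which genes the Rictor-/- cells raised or lowered after IFN-alpha.

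Rictor is a defining subunit of the second mTOR kinase complex, which phosphorylates Akt. IFN-alpha binds a receptor of the chains Ifnar1 and Ifnar2, whose kinases Jak1 and Tyk2 phosphorylate STAT proteins. Stat2 and Irf9 are subunits of the complex ISGF3, which enters the nucleus and binds the interferon-stimulated response element (ISRE), a paired GAAA sequence before many interferon-stimulated genes. The products of these genes block virus entry, degrade or mark viral RNA, present peptides to T cells and, through Usp18 and Socs proteins, turn the signal down.

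The promoters of the genes that rose most are shown first, because the ISRE is the sequence through which ISGF3 acts. The core searched was GAAANNGAAA on either strand, read as TTTCNNTTTC on the opposite one, in the 300 bases from 250 before to 50 after each annotated start (RefSeq, GRCm38.p6). Matches may overlap each other and the second motif given later. Of the 15 named genes with the largest rises, 9 held a match, Oasl2, Irf7 and Cmpk2 held none in this window, and Usp18, Mx2 and Parp14 had no entry. The stretches below run 5′ to 3′ on the strand of the gene, with up to 20 bases on each side of the matches, and capitals mark the bases of every match.
Isg15, chr4:156200855-156200916, minus strand: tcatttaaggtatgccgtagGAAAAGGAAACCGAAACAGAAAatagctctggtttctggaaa
Rsad2, chr12:26456543-26456592, minus strand: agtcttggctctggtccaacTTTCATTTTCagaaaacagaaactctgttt
Gbp3, chr3:142559979-142560034, plus strand: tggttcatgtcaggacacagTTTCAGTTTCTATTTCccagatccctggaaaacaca
Ifit3, chr19:34583353-34583436, plus strand: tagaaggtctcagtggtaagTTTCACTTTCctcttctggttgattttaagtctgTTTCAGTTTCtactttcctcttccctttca
Trim30a, chr7:104446094-104446143, minus strand: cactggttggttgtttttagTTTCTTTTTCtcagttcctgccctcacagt
Igtp, chr11:58199502-58199551, plus strand: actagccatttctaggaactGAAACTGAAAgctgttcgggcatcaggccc
Ifitm3, chr7:141010696-141010762, minus strand: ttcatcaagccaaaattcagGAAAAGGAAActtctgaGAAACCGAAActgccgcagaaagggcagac
Apol9b, chr15:77729015-77729070, plus strand: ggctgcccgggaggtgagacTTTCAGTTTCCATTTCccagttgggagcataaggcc
Irgm2, chr11:58214893-58214942, plus strand: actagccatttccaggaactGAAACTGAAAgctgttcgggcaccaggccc
Isg15 held 3 overlapping matches, the first at -78 from the start. Gbp3, Ifit3, Ifitm3 and Apol9b held 2 each in the stretch shown. The matches shown for Trim30a and Ifitm3 began after the annotated start. Trim30a and Apol9b have a second annotated start whose window also held matches and is not printed. Those of Apol9b, at -86 and -80 from that start, may be the same bases as the 2 shown. The stretches of Igtp and Irgm2, neighbouring genes of the immunity-related GTPase family, shared 48 of 50 bases. The full window of Isg15, chr4:156200769-156201068 on the minus strand, is given to show where the run of matches lies before the start.
Isg15 promoter: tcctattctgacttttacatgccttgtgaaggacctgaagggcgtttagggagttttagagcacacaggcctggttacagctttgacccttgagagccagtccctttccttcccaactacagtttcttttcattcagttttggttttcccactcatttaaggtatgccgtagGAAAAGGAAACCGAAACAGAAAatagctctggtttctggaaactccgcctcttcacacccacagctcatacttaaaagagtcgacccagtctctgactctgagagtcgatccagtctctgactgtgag

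Each level below is a normalized log2 intensity, the brightness of a gene's probe after background correction, and each difference is on that log2 scale with its standard error (SE). Levels of different probes are not compared. The summed signal was 42555922 to 62338146 on 5 of the 6 Rictor-/- arrays and 21292305 on array 12, an IFN-treated array on which 31.5% of probes lay above background, against 34.1% to 46.9% on the other 11 arrays. The background was high on arrays 3 and 4 and low on arrays 7, 8, 11 and 12, and the labels name no batch. As a check of the cell type, 14 of the 16 fibroblast markers tested lay above background on all 6 arrays, among them Vim, Acta2 and Sparc, while Fap and Lum lay below it on all 6. Of the markers of leukocytes, epithelium, endothelium, muscle and fat, 7 could be tested, and most of the others had no named probe. None of the 7 was called as changed by IFN-alpha, which says nothing about cell type. Only 1 of the 7, from the muscle and fat list, lay below background on all 6 arrays. Cd14 lay above it on all 6, so these markers do not show that other cell types were absent. The probe for Rictor read 6.12, 6.69 and 6.85 in untreated and 6.20, 6.92 and 5.08 in treated Rictor-/- cells, near background, and 5.33, 6.62 and 6.94 in untreated Rictor+/+ cells. The groups overlap, and since the place of the probe relative to the deletion is not given in the sources used here, it checks nothing about the genotype.

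IFN-alpha raised 106 and lowered 4 of the 8273 named genes tested in Rictor-/- cells, 1.28% and 0.0484% of them (limma, two-sided, Benjamini-Hochberg adjusted p under 0.05 over all 17259 features). The counts were 163 and 15 with array weights, and 62 and 0 within the arrays of low background, which are fewer. The arrays of high background hold only array 4 against array 3 of the Rictor-/- line. The median rise of the 106 genes was 2.79 there, and no count is given. Among features without a gene name, 31 rose and 3 fell, which makes 0.794% raised and 0.0406% lowered over all features. The rises were large: 105 of the 106 were at least 2-fold as fitted, 50 at least 8-fold and 12 at least 32-fold, and the median rise was 2.90, against a median change of -0.035 over all named genes. All 3 treated arrays lay above all 3 untreated arrays for each of the 106. Over all named genes that held for 6.14%, and the opposite order for 8.38%. Before treatment 62 of the 106 were above background on all 3 arrays, 16 on 1 or 2, and 28 on none. For these 28 only a lower bound of the fold is given, computed against the lowest level that counts as above background. After treatment 100 were above background on all 3 arrays. In bulk RNA of this kind, fewer responding cells and less RNA per cell cannot be told apart.

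The largest rise was that of Usp18, the protease that strips Isg15 from proteins and restrains the receptor. Its levels were 7.33, 5.81 and 6.02 in untreated cells (arrays 3, 7 and 11) and 14.15, 13.93 and 13.82 in treated cells (arrays 4, 8 and 12). The groups were far apart, with array 3 the highest of the untreated arrays. The rise was 7.58 ± 0.37 (SE, n = 3 against 3), or 192-fold, with an adjusted p of 1.14e-07 from limma, and a second Usp18 probe rose by 7.11. Untreated Usp18 was above background on 2 of 3 arrays, so that fold depends in part on the background. Oasl2, an oligoadenylate synthetase-like protein, went from 8.76, 6.46 and 5.79 to 14.37, 14.26 and 14.32. Its untreated arrays spread over about 3 log2 units while its treated arrays nearly coincided, and the rise was 7.32 ± 0.55, with 2 of the 3 untreated arrays above background. Isg15, the ubiquitin-like protein whose promoter is printed above, went from 7.72, 7.19 and 6.75 to 13.55, 13.96 and 13.48. It was above background on every array, and rose by 6.44 ± 0.26, or 87.1-fold. In untreated Rictor+/+ cells Oasl2 had a mean of 10.82 and Isg15 of 10.63, and they rose there by 4.18 ± 0.55 and 5.01 ± 0.26. The differences of responses were not called (adjusted p 0.20 for Oasl2).

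**Figure D1:**
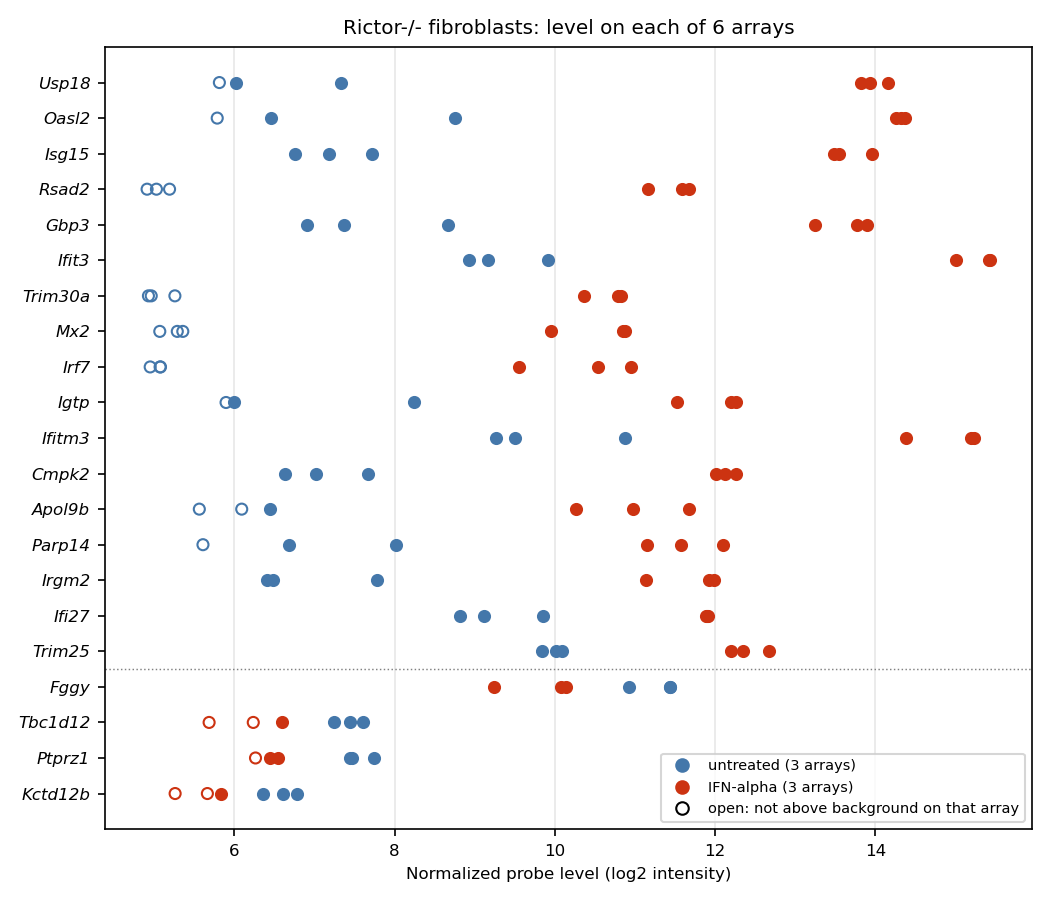
Normalized log2 intensity (x axis) of the 15 genes with the largest rises, of Ifi27 and Trim25, and, under the dotted line, of the 4 lowered genes, on each of the 3 untreated (blue) and 3 IFN-treated (red) Rictor-/- arrays. Open points were not above background on that array; in every gene drawn the 2 groups of points do not overlap, as for Usp18 at 5.81 to 7.33 untreated and 13.82 to 14.15 treated.

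In the signalling chain Stat2, Irf9 and the inhibitor Usp18 rose, while the receptor chain, the kinases, the phosphatases and Stat3 were not called. Of the 14 members tested, 3 rose and none fell, with a median change of 0.29. Stat2 went from 8.80, 8.30 and 8.17 to 11.27, 11.22 and 10.41, a rise of 2.54 ± 0.32. Irf9 went from 10.02, 9.16 and 8.88 to 12.32, 12.26 and 11.52, a rise of 2.68 ± 0.33, and a second Irf9 probe rose by 3.76. Both of these ISGF3 subunits thus lay higher on every treated array. Ifnar2, the receptor chain, changed by 0.41 ± 0.27 and Jak1 by 0.03 ± 0.40. Tyk2 changed by -0.99 ± 0.34 with an adjusted p of 0.56. Its array 3 read 7.58 against 6.23 and 6.30 on the other untreated arrays, and the treated arrays were below background. Socs1, a feedback inhibitor of the Jak kinases, was below background untreated and at 5.65, 6.38 and 7.03 treated, and was not called (adjusted p 0.81). Stat3 (0.33), Socs3 (-0.08), the phosphatases Ptpn1 (0.52), Ptpn2 (-0.21), Ptpn6 (0.25) and Ptpn11 (0.26), and the ligase Pias1 (0.15) were not called either. Ifnar1 had no named probe and was not analysed here.

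Among the interferon regulatory factors, 1 of 5 tested rose. Irf7, the factor that amplifies type I interferon production, was below background on all untreated arrays at 4.95, 5.07 and 5.08, and reached 10.96, 10.54 and 9.55 with IFN-alpha. It was at least 19.1-fold higher, with an adjusted p of 2.34e-06, and array 12 was the lowest of the treated arrays. Irf1, which activates many of the same promoters, stood at 12.65, 12.18 and 11.76 untreated and 12.74, 12.78 and 12.72 treated, a difference of 0.55 ± 0.24 that was not called. Irf2 (0.48), Irf3 (0.31) and Irf5 (1.41) were not called.

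The Isg15 pathway rose nearly whole. Isg15 is coupled to proteins by an activating enzyme (Uba7), a conjugating enzyme (Ube2l6) and ligases, and removed by Usp18. Of the 6 members tested, 5 rose, with a median of 3.85. Uba7 went from 9.58, 8.58 and 7.27 to 12.69, 12.41 and 12.64, a rise of 4.10 ± 0.52. Its untreated arrays spread widely and its treated arrays did not. Ube2l6 rose by 3.60 ± 0.29, from 8.78, 8.24 and 8.11 to 12.04, 12.07 and 11.81. Trim25, a ligase that also activates the RNA sensor Ddx58, went from 10.08, 10.02 and 9.84 to 12.35, 12.19 and 12.67, a rise of 2.42 ± 0.19. The member not called was Herc3, at -0.32 ± 0.25.

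The oligoadenylate synthetases make the short 2-5A chains that switch on an RNA-degrading nuclease. Here 4 of the 9 members tested rose and 5 were not called, with a median of 1.53. After Oasl2, the largest rise was that of Oas1g, from 7.0, 6.54 and 6.80 to 10.39, 10.14 and 10.35, which is 3.52 ± 0.22. Another Oas1g probe rose by 4.04, and a further pair below background, at 0.36 and 0.16, was not called. Oas2 was below background untreated and reached 8.74, 8.46 and 7.42, at least 4.33-fold higher. Oas1b was at least 2.32-fold higher and above background on 2 of the 3 treated arrays. Oasl1 read 5.34, 5.40 and 4.84 with IFN-alpha and Oas3 read 4.98, 4.97 and 6.34, all below background. Oas1c at 1.52 ± 0.39 and Oas1d at 0.78 ± 0.28 were not called. Probes of near-identical Oas1 copies may share RNA, so the split among them is uncertain.

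Of 10 tested genes on the list of Mx, Ifit, Ifitm and Ifi27 genes, 7 rose, with a median of 2.69. These products trap viral nucleocapsids, bind viral RNA or block entry through membranes. Ifit3 went from 9.92, 9.17 and 8.93 to 15.42, 15.43 and 15.01, a rise of 5.95 ± 0.28, and its second probe rose by 6.47. Ifitm3, which hinders virus entry from endosomes, went from 10.88, 9.50 and 9.27 to 15.23, 15.19 and 14.38, a rise of 5.05 ± 0.38. In both genes array 3 was the highest untreated and array 12 the lowest treated array, and the groups were still separated by more than 3 log2 units. Mx2, a dynamin-like GTPase, was below background untreated and reached 10.86, 10.87 and 9.95, at least 22.1-fold higher. Ifi27l2a was at least 9.09-fold higher. Mx1, the paralog of Mx2, was below background untreated, reached 8.11, 7.83 and 6.04 and was above background on only 2 treated arrays, at least 2.35-fold higher, with an adjusted p of 0.037. It was called in 9 of the 26 other settings that tested it: the adjusted p was 4.18e-05 without array 12, 0.062 with an offset of 50 and 0.18 without background correction. Ifit2, at 10.32, 9.85 and 10.31 untreated and 11.37, 11.28 and 10.47 treated, was not called (0.88 ± 0.30). Ifitm2, at a change of 0.11 ± 0.25, was above background on all arrays and not called, and Ifitm6 was below background on all 6. Ifit1bl1 (0.77) and Ifit1bl2 (1.30), Ifit genes outside the list and named after their values were seen, were not called.

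The guanylate-binding proteins and immunity-related GTPases, which assemble on the vacuoles of intracellular pathogens, had 9 of 13 tested list members raised and a median of 3.57. Gbp3 went from 8.67, 7.37 and 6.91 to 13.90, 13.77 and 13.25, a rise of 5.99 ± 0.37. Igtp went from 8.24, 6.0 and 5.90 to 12.27, 12.20 and 11.52, and Irgm2 from 7.79, 6.41 and 6.48 to 11.99, 11.93 and 11.14. In all 3 genes array 3 lay above the other untreated arrays by more than 1 log2 unit. Gbp7 was below background untreated and at least 11.5-fold higher with IFN-alpha. Irgm1, on the other hand, stood at 14.46, 14.65 and 14.46 untreated and 15.01, 15.12 and 15.12 treated, a difference of 0.56 ± 0.19 without overlap that was not called. Irgq (-0.47) and Tgtp1 (1.88 ± 0.53, above background on 2 treated arrays) were not called, nor were Gbp10 (0.73) and Gbp11 (-0.05), which were outside the list and are named after their values were seen.

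**Figure D2:**
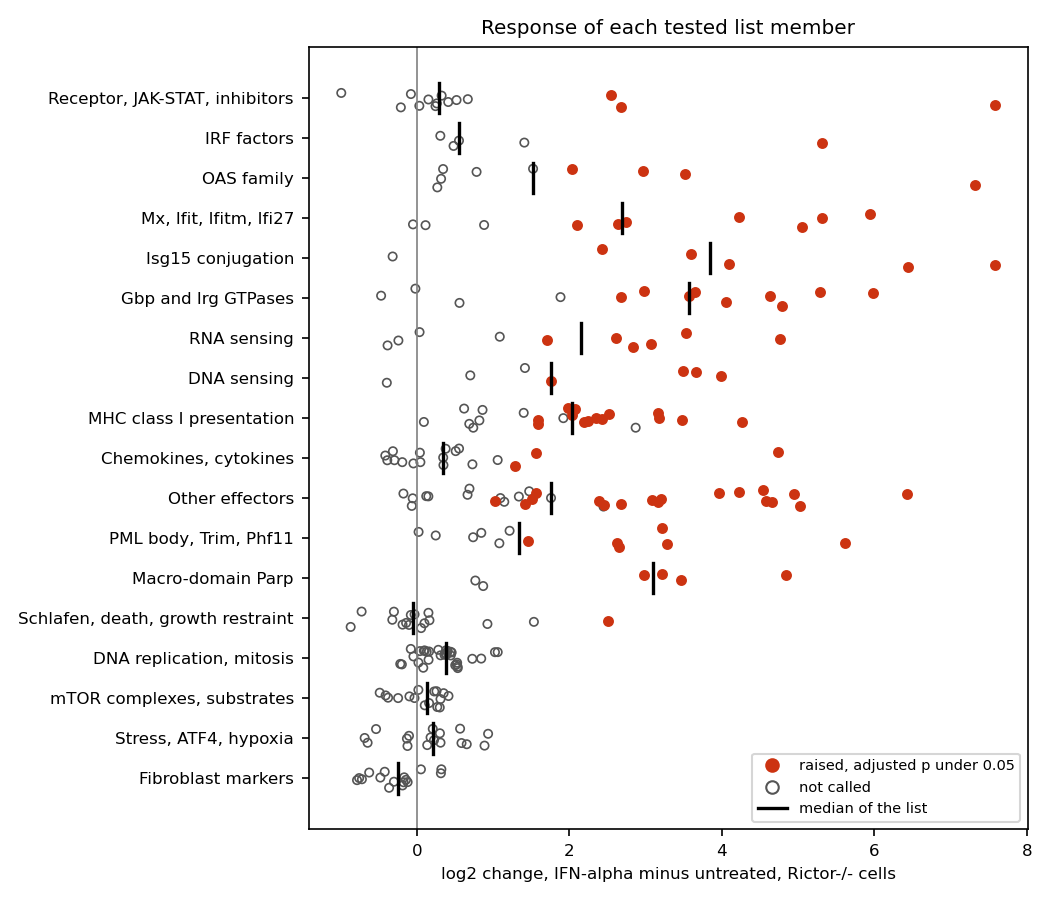
The log2 change with IFN-alpha in Rictor-/- cells (x axis) of each tested member of 18 gene lists (rows); filled red points rose at an adjusted p under 0.05, open points were not called, and black bars are list medians. The medians of the OAS to Parp rows, chemokines aside, lie between 1.34 and 3.85, and those of the growth, replication, mTOR, stress and fibroblast rows between -0.24 and 0.38; a gene in 2 lists is drawn in both.

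Sensors of foreign RNA rose in 6 of 10 tested members, with a median of 2.16. Dhx58, a regulator of the RIG-I-like receptors, was below background untreated and reached 10.53, 10.51 and 9.73, at least 17.9-fold higher. Ddx58, which encodes RIG-I, went from 8.90, 7.91 and 7.81 to 11.86, 11.83 and 11.53, a rise of 3.54 ± 0.28, while its other probe was not called, at 0.87. Ifih1, which encodes MDA5, was at least 4.25-fold higher. Eif2ak2, the kinase PKR that stops translation on double-stranded RNA, rose by 3.08 ± 0.22 from 10.09, 10.38 and 10.27 to 13.12, 13.18 and 13.68. Mavs, the adaptor of RIG-I and MDA5, at -0.24 ± 0.22, was not called, nor were Zbp1 (1.09) and the kinase Ikbke (0.04). Among DNA sensing genes 4 of 7 rose, with a median of 1.75: Ifi205, Ifi211 and Ifi204 of the HIN-200 family, which were below background untreated, and the exonuclease Trex1, which rose by 1.75 ± 0.24. Cgas changed by 1.42, Sting1 by -0.39 and Mndal by 0.70, and none of these was called. HIN-200 genes are close copies, so the split of signal among them is uncertain.

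Antigen presentation by MHC class I rose in 14 of 23 tested members, and all 23 changes were above 0, with a median of 2.04. The immunoproteasome subunit Psmb8 went from 6.0, 6.73 and 6.26 to 10.86, 10.66 and 10.27, a rise of 4.26 ± 0.29, and Psmb9 rose by 3.17 ± 0.28. The class I transactivator Nlrc5 was below background untreated and at 9.16, 8.55 and 6.83 treated, at least 4.24-fold higher, with array 12 again the lowest and not above background. The peptide transporter chain Tap1 was at least 4.70-fold higher. H2-K1 and H2-D1, classical heavy chains named here after their values were seen, rose by 2.53 ± 0.32 and 2.35 ± 0.36. Probes of H2 genes may read several near-identical chains. B2m, the light chain, had a mean of 14.91 ± 0.08 (SD, n = 3) untreated and stood at 15.66, 15.91 and 15.64 treated. The groups did not overlap, and the difference of 0.82 ± 0.18 missed the threshold with an adjusted p of 0.058. B2m was called in limma without background correction (adjusted p 0.0032) and with an offset of 50 (0.026). Psme1 (0.69) and Calr (0.09) were not called. Cd74, the 1 class II gene tested, was below background on all 6 arrays.

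Of 18 chemokines, cytokines and their partners 3 rose, with a median of 0.35. Cxcl10, which draws T cells, was below background at 6.08, 5.23 and 5.53 and reached 11.13, 10.06 and 9.85, at least 19.1-fold higher. Il15, which sustains natural killer and memory T cells, rose by 1.57 ± 0.25 from 8.88, 9.03 and 8.86 to 10.68, 10.75 and 10.03, and Il7 rose by 1.28 ± 0.24. Without array 12 the rise of Il7 was 1.20 with an adjusted p of 0.087. Cxcl12 (0.04), Ccl7 (0.38) and Csf1 (0.55), above background on all 6 arrays, were not called.

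Other antiviral effectors rose in 18 of 31 tested members, with a median of 1.76. Rsad2, the enzyme viperin that makes a chain-terminating nucleotide, was below background at 5.03, 4.91 and 5.19 and reached 11.68, 11.59 and 11.17, at least 41.7-fold higher. Cmpk2, a nucleotide kinase whose gene lies beside Rsad2, went from 7.66, 6.63 and 7.02 to 12.12, 12.01 and 12.26, a rise of 5.02 ± 0.27. Apol9b rose by 4.94 ± 0.34 and the secreted glycoprotein Lgals3bp by 4.66 ± 0.50. Lgals3bp read 13.83, 13.86 and 12.33 on the treated arrays, and its rise was 5.16 without array 12. Nmi was called although it was below background on all 6 arrays, and no fold is given. It was called in 5 of the 26 other settings that tested it, and not without array 12 (adjusted p 0.13) or under median scaling (0.74). Shisa5 (1.15), Ly6e (0.69) and Trafd1 (1.10) were not called.

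Of the PML body, Trim and Phf11 genes 6 of 12 rose, with a median of 1.34. Trim30a was below background at 5.26, 4.93 and 4.96 and reached 10.79, 10.83 and 10.37, at least 23.8-fold higher. Phf11d rose by 3.28 ± 0.28, Trim21, an intracellular antibody receptor, by 3.22 ± 0.32, and Trim30d was below background untreated. The other probes of Trim21 did not bear the call out, at -0.82 and 1.28. Pml (1.22, adjusted p 0.10), Trim26 (1.08) and Trim56 (0.85) were not called. Of the macro-domain Parp genes and their partner, 4 of 6 rose, with a median of 3.10. Parp14 went from 8.02, 6.69 and 5.61 to 12.10, 11.57 and 11.15, a rise of 4.84 ± 0.49 that its other probes, at 0.46 and 0.84 and near background, did not share, and Dtx3l, Parp12 and Parp10 rose by 3.47, 3.21 and 2.98. Parp9 (0.87) and Parp11 (0.77) were not called.

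Genes of growth and its restraint were mostly not called at 24 hours. Of 16 Schlafen, death and growth-restraint genes only Mlkl rose, the executor of necroptosis, from 8.97, 9.02 and 9.17 to 11.83, 11.63 and 11.24, which is 2.51 ± 0.22. The list's median was -0.054, and the cell cycle inhibitors Cdkn2b (0.17) and Cdkn2a (-0.19) and the damage response gene Gadd45a (-0.14) were not called. None of 31 replication and mitosis genes was called, with a median of 0.38, against -0.035 over all named genes. In Rictor+/+ cells the median of the 31 was -0.42, also without a call. The changes in Rictor-/- cells were above 0 for 27 of the 31. The cyclin Ccnd1 changed by 0.11, and the helicase subunits Mcm6 and Mcm5 by 1.03 ± 0.26 and 0.52. Pcna, the replication clamp, named after its values were seen, read 8.55 on untreated array 3 against 10.23 and 10.42 on arrays 7 and 11, and 9.48, 10.52 and 10.81 with IFN-alpha, so that array 3 was the low one. Among 16 tested mTOR complex genes and substrates none was called (median 0.13), with Rps6 at -0.03, Sgk1 at -0.10 and Eif4ebp1 at 0.23. The 17 stress, ATF4 and hypoxia genes (median 0.21, with Atf4, Asns and Chac1 at 0.23 to 0.31), the 16 fibroblast markers (median -0.24) and 8 widely expressed genes, among them Actb, Gapdh and Eef2 (median -0.19), had no call.

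Only 4 named genes fell, and none belonged to a list. Fggy, a carbohydrate kinase, read 10.92, 11.43 and 11.43 untreated and 10.14, 10.08 and 9.24 treated, a change of -1.44 ± 0.26 with an adjusted p of 0.016. Array 12 was the lowest. Without it the change was -1.15 and still called, while the call was lost without array 7 (adjusted p 0.11), without array 11 (0.11), under median scaling (0.16) and with the Rictor-/- arrays alone (0.15). Ptprz1, a receptor phosphatase, changed by -1.13 ± 0.18, and its call was lost without background correction (adjusted p 0.063), under median scaling (0.15), in the deposited values (0.18) and with the Rictor-/- arrays alone (0.084). Tbc1d12 (-1.26 ± 0.25) and Kctd12b (-0.99 ± 0.21) were above background on 1 of 3 treated arrays and were not called without array 12, with adjusted p of 0.12 and 0.17. All treated arrays lay below all untreated ones in 693 named genes.

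Arrays 3 and 12 lay apart from their groups in the raised genes. Array 3 was the highest of the untreated arrays for 50 of the 62 raised genes measured on all of them (80.6%). Over all 62 genes its level lay at a median of 0.38 above the group mean. Of the 7022 named genes measured in the same way it was highest for 47.7%, and its median over all 7022 was 0.044. Array 12 was the lowest treated array for 63 of the 106 (59.4%), against 46.4% of all named genes. The rise from array 3 to array 4, both of high background, had a median of 2.79 over the 106 genes, and that from arrays 7 and 11 to arrays 8 and 12, of low background, 2.96. All 106 rose in both, which was fixed because their treated and untreated arrays do not overlap, and 68 rose less in the first. The median rise of the 106 genes was 2.90 with all arrays, 3.03 without array 3, 2.999 without array 12 and 3.16 without both. Without array 12 the same fit raised 111 genes, 99 of them among the 106, and lowered 3. Without arrays 3 and 12 it raised 106, of which 95 were the same, and lowered 3.

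**Figure D3:**
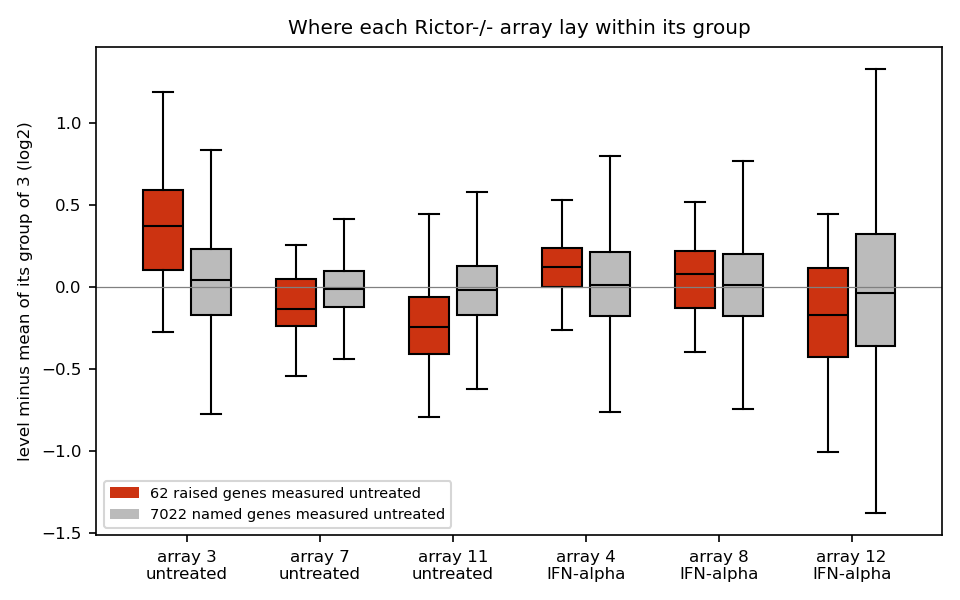
Level of each gene on 1 array minus the mean of its group of 3 (y axis, log2), for each Rictor-/- array, over 62 raised genes measured on all untreated arrays (red) and 7022 named genes measured in the same way (grey); boxes span the quartiles, the line is the median and whiskers reach at most 1.5 box lengths. The red box lies at a median of 0.38 on array 3 against 0.044 for the grey one.

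Most genes raised in Rictor-/- cells also rose in Rictor+/+ cells, which raised 294 named genes (3.55%) and lowered 42 (0.508%). The lists shared 101 genes, 95.3% of those raised in Rictor-/- and 34.4% of those raised in Rictor+/+ cells. The change was smaller in Rictor-/- cells for 76 of the 106, and their median change in Rictor+/+ cells was 3.55. The difference of the responses was tested as an interaction in the same model. It was called smaller in Rictor-/- cells for 55 named genes (0.665%) and larger for 3 (0.0363%). The smaller responses numbered 127 with array weights, 16 with a filter on the Rictor-/- arrays, and 0 within either set of arrays of like background. That filter leaves out genes above background on fewer than 3 of the Rictor-/- arrays. Of the 106, 14 had a smaller and 3 a larger response, and for 89 the difference was not called. Another 193 genes rose in Rictor+/+ and were not called in Rictor-/- cells. For 41 of them the smaller response was called and for 152 it was not, and 155 of the 193 changes lay above 0 in Rictor-/- cells, with a median of 0.37.

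Of the 55 genes with a smaller response, 14 still rose in Rictor-/- cells and 23 were below background on all 3 of their treated arrays. Oas1g is one that still rose, with 14.82, 14.24 and 14.31 on the treated Rictor+/+ arrays against 10.39, 10.14 and 10.35, and a rise of 7.98 ± 0.22 in Rictor+/+ cells. The difference of responses was -4.46 ± 0.32. Oas2, Mx1, Mpeg1, a pore-forming protein, and Gm4951 also rose less. Phf11a is one without a measured level: it read 5.85, 5.46 and 6.39 on treated Rictor-/- arrays, all below background, and 11.52, 10.87 and 11.76 on treated Rictor+/+ arrays. Oasl1 and Xdh were also below background on all treated Rictor-/- arrays. Sp100, of the PML body, was above it on 1 of these arrays and Csprs on 2. The OAS list held 7 of the 55, with all 9 of its tested members raised in Rictor+/+ cells.

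The 3 larger responses differed in what the Rictor+/+ cells showed. Ifitm3 stood at 14.09, 14.21 and 14.44 in untreated Rictor+/+ cells, against 10.88, 9.50 and 9.27 in untreated Rictor-/- cells. With IFN-alpha it reached 15.84, 15.82 and 15.38 in Rictor+/+ and 15.23, 15.19 and 14.38 in Rictor-/- cells. The gap between the lines was thus large before treatment and small after it, and the difference of responses of Ifitm3 was 3.62 ± 0.53. Its treated Rictor+/+ levels lay near the top of the scale. The highest raw intensities on arrays 2, 6 and 10 were 70399.4, 72506.1 and 63648.7. Whether that limited the rise of Ifitm3 in Rictor+/+ cells was not tested. Ifi27, a mitochondrial and nuclear envelope protein, stood at 12.10, 11.47 and 11.75 untreated and 11.61, 11.50 and 11.78 treated in Rictor+/+ cells, and went from 9.86, 9.11 and 8.82 to 11.91, 11.90 and 11.89 in Rictor-/- cells. The treated Rictor-/- arrays lay slightly above the treated Rictor+/+ arrays, and the difference of responses was 2.78 ± 0.37. None of the 6 Rictor+/+ arrays read Trim25 above background, with levels of 4.60 to 4.93, so no change could be measured there, and no size is given for the difference of responses. Rbbp4, a chromatin subunit, and Zfp365 were also called in Rictor-/- and not in Rictor+/+ cells, with no called difference. Rbbp4 rose by 1.93 ± 0.31 on its brightest probe, and its 3 other probes changed by 0.30, -0.69 and -0.51 without a call. Zfp365 rose by 1.45 ± 0.29 and was not called without array 12.

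**Figure D4:**
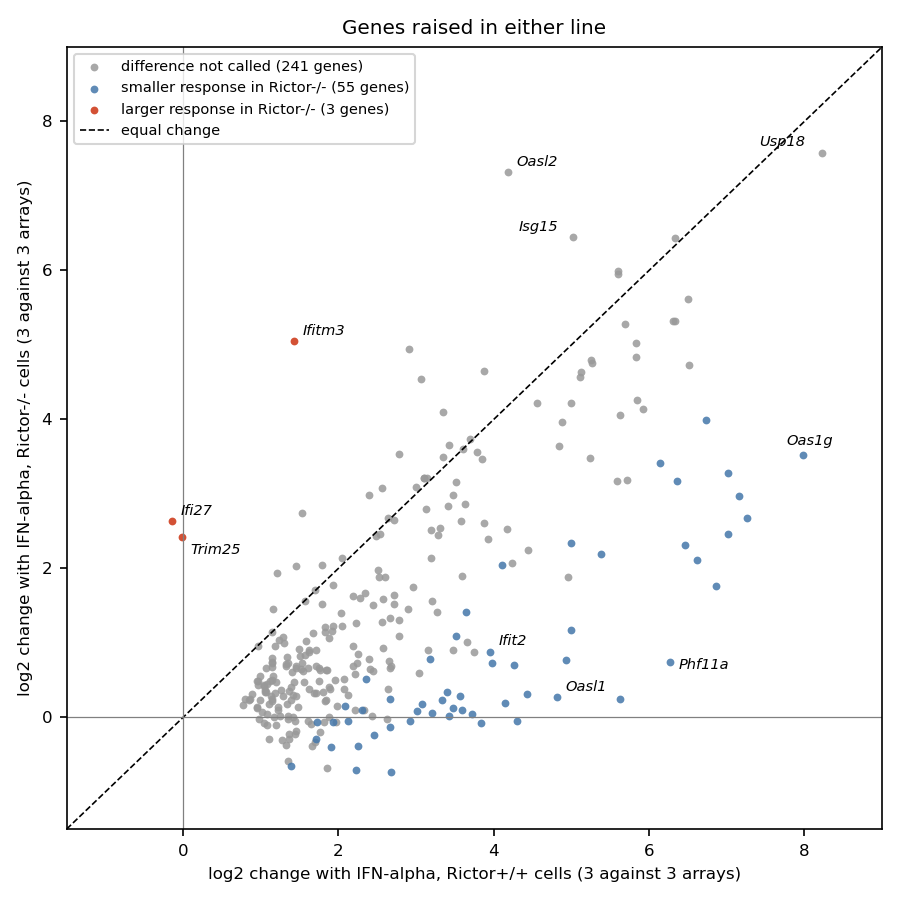
The log2 change with IFN-alpha in Rictor+/+ cells (x axis) and in Rictor-/- cells (y axis) for the 299 named genes raised in either line; blue points had a smaller response in Rictor-/- cells (55), red points a larger one (3), grey points no called difference (241), and the dashed line marks equal change. Oas1g lies at 7.98 and 3.52, and Ifitm3 at 1.43 and 5.05.

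The ISRE core was counted per gene with a promoter entry, in the window of any of its annotated starts. It was held by 33 of the 82 raised genes with an entry (40.2%), by 209 of 6449 genes called in neither line (3.24%) and by 1079 of all 27025 genes of the promoter table (3.99%). Of the genes raised at least 8-fold as fitted 21 of 40 held it (52.5%), and of those raised less, 12 of 42 (28.6%). Genes raised in Rictor+/+ and not called in Rictor-/- cells held it in 30 of 147 (20.4%), and genes with a smaller response in 13 of 39 (33.3%). None of the 3 lowered genes with an entry did. At least 2 matches, as in Isg15 and Ifit3 above, were found in 12 raised genes (14.6%) and in 0.266% of all genes of the table. The 51 matches of the raised genes lay at a median of -59 bases from the start, 62.7% of them within the 150 bases before it, against 47.9% for the 1210 matches of all promoters. Matches were counted from each annotated start, so the same bases may count more than once. The other interferon motif, the gamma-activated site bound by STAT dimers, was searched as TTCNNNGAA, which reads the same on both strands. It was found in 15 raised genes (18.3%) and in 9.55% of all genes of the table. A match describes these letters only and does not show that a factor binds there.

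**Figure D5:**
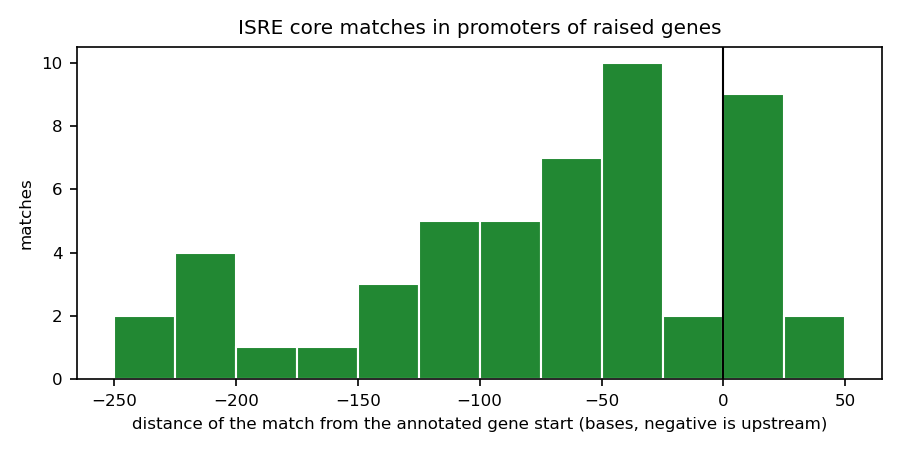
Number of ISRE core matches (y axis) by distance of the match from the annotated gene start (x axis, bases, negative before the start, bins of 25) in the promoters of raised genes, 51 matches in 33 genes, counted from each annotated start. The tallest bin lies within the 50 bases before the start, and 62.7% of matches fall within the 150 bases before it.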

How the data were processed

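Total RNA was hybridised to Illumina mouse BeadChips, 1 array per sample. The authors deposited probe intensities labelled non-normalized, and a table of processed log2 values whose normalization is not given in the sources used here. BeadStudio is named in the submitters' processing notes. From the deposited intensities of all 12 arrays, the background of each array was taken from the mode and lower tail of its signals. Normexp correction (offset 16) and quantile normalization followed, then log2. A probe counted as above background at an upper-tail p under 0.01 and was kept when it was so on at least 3 arrays, which left 20856 of 45281 probes. The brightest probe stood for each gene, giving 17259 features, of which 8273 had a gene name from the platform annotation and 8986 did not. Of the 17003 annotated probes, 14461 had 1 gene, 5 several and 2537 none. limma 3.58.1 in R 4.3.3 fitted the 4 groups of 3 arrays together (8 residual and 4.51 prior degrees of freedom), with Benjamini-Hochberg adjustment over all features. The number of arrays limits the precision. The scripts were tested on simulated data. Probes of near-identical genes may share signal.

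The members and gene lists were chosen with earlier results of these data known. Genes were named by rule: the 15 largest rises, all falls, every signalling and IRF gene tested, up to 4 raised and 3 uncalled genes of each other list, the 10 largest differences of responses in each direction, genes raised in Rictor-/- only, and Rictor. Exceptions are stated.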

Additional observations from a re-analysis of the deposited data

Results flagged for a closer look

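The response to IFN-alpha differed between the lines by the interaction test in limma, with 55 named genes responding less and 3 responding more in the Rictor-/- line. Of the 55, 23 were below background on all 3 treated Rictor-/- arrays. A filter on the Rictor-/- arrays left 16 of the 55. The adjusted p of the difference and its size (log2, ± SE, 3 arrays per group) follow for the genes of the naming rule, with a size where levels allow one. No size is given for Phf11a (adjusted p 4.64e-05), Oasl1 (5.88e-05) and Xdh (0.000289), which were below background on all Rictor-/- arrays, nor for Trim25 (0.000638), which was so on all Rictor+/+ arrays. These genes passed the filter only through arrays of the other line. Each adjusted p thus sets levels below background in 1 line against readings in the other. The untreated levels of the other smaller responses did not exceed background in either line, except for Oas1g, so their sizes are fitted values that depend on the background correction. Sp100 (adjusted p 3.83e-05), Csprs (0.000495) and Mx1 (0.00288) were above background on fewer than 3 Rictor-/- arrays. They too passed the filter only with the help of Rictor+/+ arrays, and no size is given for them. Gm4951 differed by -4.59 ± 0.48 (0.000377) and Mpeg1 by -4.57 ± 0.34 (3.83e-05). In the OAS family Oas1g differed by -4.46 ± 0.32 (3.83e-05) and Oas2 by -4.20 ± 0.52 (0.00159). The larger responses were Ifitm3 at 3.62 ± 0.53 (0.00616), Ifi27 at 2.78 ± 0.37 (0.00288) and Trim25. Within the high and the low background arrays the rise of Ifitm3 was 4.35 and 5.40, that of Ifi27 2.05 and 2.93, and that of Trim25 2.27 and 2.50.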

How the results depend on the processing

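The main counts were 106 raised and 4 lowered genes in Rictor-/- cells, and 55 smaller and 3 larger responses. Under 27 other settings, 19 planned and 8 added after seeing the data, 33 of the 106 were called in all 27. Every one of the 106 that was tested kept a positive change. In settings that reuse the same normalized levels that sign was fixed, since all treated arrays lay above all untreated ones. Leaving out 1 array of either line gave 88 to 111 raised, 1 to 5 lowered, 43 to 57 smaller and 3 to 4 larger. The count of lowered genes was 2 without array 4, 9 or 10 and 1 without array 11. Zfp365, Dcp2, Ogfr, Tor1aip2, Mx1, Rnf213, Apobec1 and Nmi were called in 5 to 13 settings. Calls were gained as well. Among list members and genes with a called difference that were not raised or lowered in the main fit, 86 of 5775 gene-by-setting values became called. Array weights, which gave array 12 a weight of 0.248, called 163 raised, 15 lowered, 127 smaller and 16 larger. Median scaling called 80 raised and 0 lowered (278 at an unadjusted p under 0.05), with the median of all named genes at -0.29. The 6 Rictor-/- arrays alone called 93 and 0 (244 unadjusted), cyclic loess 2 lowered, a trended robust fit 2, and the deposited values 1 lowered and 5 larger. Without background correction 5 responses were larger, as when array 12 was left out before normalization. A filter on the Rictor-/- arrays gave 16 smaller responses, all among the 55. It tested 7583 named genes and left out those above background on fewer than 3 of the Rictor-/- arrays. Within the arrays of high background, 37 genes were raised and 1 lowered, and within those of low background 62 and 0 (157 lowered unadjusted), with 0 smaller and 0 larger in either (426 and 356 unadjusted in the first, 194 and 89 in the second). Both fits hold fewer arrays, and the cause of these and the other shifts was not tested. With the background set as a block the counts were 113, 3, 60 and 3. No paired analysis was run, because no label pairs the arrays and their numbers are not shared between groups. Levels under background carry no fold, which limits the smaller responses most.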

Other observations

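Of the 106 raised genes 23 stood in none of the lists, and those named here were chosen after their values were seen. Shfl, which encodes an antiviral inhibitor of ribosomal frameshifting, rose by 3.74 ± 0.28, and Samd9l, which restrains translation and growth, rose by 2.80 ± 0.27, from 12.16, 11.40 and 11.35 to 14.45, 14.33 and 14.52. Ifi207, of the HIN-200 family, was below background untreated and at least 5.98-fold higher with IFN-alpha. Hap1, known for binding huntingtin, rose by 4.14 ± 0.52 on its brightest probe and was not called on the other probes, at 1.06 and 0.44. Tdrd7 rose by 1.89 ± 0.23 and Cmtr1, an enzyme of the mRNA cap, by 1.13 ± 0.21. Lmo2, a transcriptional cofactor, was at least 2.57-fold higher.

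A further 64 probes of 42 raised genes were tested. Of these 61 changed in the same direction, and 37 were called.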
